A study of Mus musculus with 17 samples.

Results

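The 4 cultured spermatogonial stem and progenitor cell (SSC) lines of the series, its germline group, were set against its 3 somatic samples, 2 haematopoietic stem and progenitor cell (HSC) cultures and 1 mouse embryonic fibroblast (MEF) sample. These are 7 of the 17 mouse samples, chosen by cell type label, and the comparison runs over the 32661 transcripts (of 33262 rows per file) that have a plain RefSeq NM_ or NR_ identifier and so 1 row each. SSC 1 and SSC 2 were of the Oct4-GFP strain, SSC 3 of C57Bl/6J and SSC 4 of 129mix, and all were grown on MEF feeder cells in a medium with GDNF (10 ng/ml), bFGF (10 ng/ml), EGF (20 ng/ml) and 1% serum. Feeder cells were depleted by 2 hours on gelatin, after which the floating cells were taken. Both HSC cultures came from lineage-depleted C57Bl/6J bone marrow expanded in soluble Kit Ligand (10 ng/ml) on E4ORF1-HUVECs, human umbilical vein endothelial cells, and were depleted of lineage-positive cells again before collection. MEF 1 came from E13.5 embryos of H3.3B-HA mice, 129mix strain, grown in 10% serum without added growth factors. The comparison addresses how the transcriptome of the male germline differs from that of somatic cells. Against soma, HSC and MEF were taken as 1 group, so the error of that test includes the difference between HSC and MEF. A gene high in only 1 of these cell types can therefore fail against soma. MEF is a single sample, and where it was tested apart it was assumed to vary like the other groups. The labels do not say which samples of a group came from separate cultures or animals, so p-values measure only the spread between these samples.

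Spermatogonial stem cells maintain spermatogenesis. They sit on the wall of the seminiferous tubule, answer to GDNF through its receptor GFRA1 and the kinase RET, and either renew or start to differentiate under retinoic acid. Germ cells of many stages share a programme that somatic cells keep silent: RNA-binding proteins of the germ granule, the piRNA pathway that restrains transposons, and proteins of the meiotic chromosome axis. Promoters of many such genes are rich in CpG and carry a binding sequence of E2F6, TCCCGC, or an E-box, CACGTG, both bound by a repressive Polycomb complex that holds MGA and MAX. MHC class I molecules, by contrast, present peptides on nearly every somatic cell and are scarce on germ cells.

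Values are FPKM (fragments per length of transcript and library size) for each transcript, and differences are SSC minus soma on the log2(FPKM + 1) scale, which understates changes of low transcripts. A transcript was called where the difference was at least 2 and limma's p was under 0.05 after Benjamini-Hochberg adjustment over all 32661 transcripts. SSC libraries held 15718 to 16272 transcripts at 1 FPKM or more, the HSC libraries 13532 and 15444, and MEF 1 14834. A transcript at 1 FPKM was covered by 1.25 to 2.87 reads per base in the 7 libraries, so values under about 0.1 FPKM rest on very few reads. Across transcripts, which are not independent replicates, Pearson's r of the log2 values was 0.916 to 0.964 between SSC lines and 0.756 to 0.83 between an SSC line and a somatic sample.

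Several libraries held RNA of other cell types, and these values bear on what follows. Summed over 19 fibroblast markers (collagens, Fn1, Pdgfra, Twist1 and others, without Col1a1, which is listed at 0 in MEF 1 without a valid estimate), the level was 606 FPKM in SSC 1, 80.1 in SSC 2, 1461 in SSC 3 and 228 in SSC 4. That is 5.98%, 0.79%, 14.4% and 2.25% of the sum in MEF 1. HSC 2 held 7.7% of it and HSC 1 0.0978%. Mast cell and myeloid markers (18 genes, such as Cpa3, Mcpt4 and Tpsb2) made up 9.72% and 7.57% of all FPKM in the HSC cultures, and the transcript with the highest FPKM was the mast cell protease Tpsb2 in HSC 1 and Mcpt4 in HSC 2. Summed over 24 haematopoietic stem and progenitor markers, the level was 4040 FPKM in HSC 1, 2642 in HSC 2 and 399 in MEF 1. That list includes Spi1, a regulator of myeloid cells, so its sum does not separate stem and progenitor cells from myeloid ones. Its members differed, and Hoxa9 was at 0.698 and 2.58 FPKM in the HSC cultures and 0.806 in MEF 1. MEF 1 in turn held leukocyte and macrophage transcripts, with Spi1 at 46.1 FPKM, Csf1r at 64.4 and Lyz2 at 3336. Only in the MEF sample was Xist, the RNA of the inactive X, above 10 FPKM (14.97), and the Y-linked Ddx3y and Eif2s3y were listed at 0 there and were between 4.31 and 46.3 FPKM in the other 6 samples. Values of sex-linked genes thus separate MEF 1 from SSC as well as cell type.

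**Figure D1:**
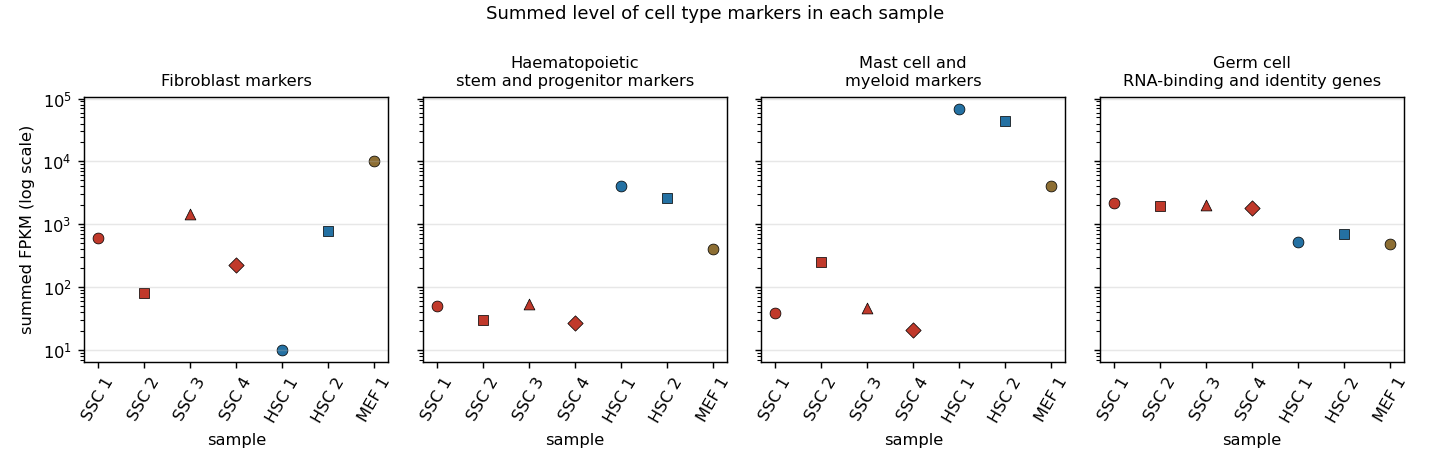
Summed FPKM (log scale) of 4 marker lists in each of the 7 samples, 1 point per sample; fibroblast markers leave out Col1a1. Fibroblast markers were higher in SSC 3 (1461) than in SSC 2 (80.1), and mast cell and myeloid markers were highest in HSC 1 and HSC 2.

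Of the 32661 transcripts, 1177 (3.6%) were called higher in SSC and 674 (2.06%) lower, 5.67% in all, and in every called transcript the 4 SSC values lay apart from the 3 somatic ones. Whether called or not, 22.1% of transcripts had all SSC values above all somatic ones and 9.62% all below. Against HSC alone 1313 were higher (4.02%) and 1132 lower (3.47%), 7.49% in all, and against MEF alone 1048 were higher (3.21%) and 606 lower (1.86%). Both single comparisons use the same SSC samples. Among the 18559 transcripts at 1 FPKM or more in at least 2 of the 7 samples the median difference was 0.35, so the differences given here stand on a general shift of that size. Quantile normalization brought that median to 0.14 and changed the split to 872 higher and 863 lower (50.3% of calls higher, against 63.6% before). The number called lower depended on single libraries. It was 391, 448, 396, 447 and 382 without SSC 1, SSC 2, SSC 4, HSC 1 or HSC 2. Leaving out MEF 1 gives the test against HSC alone, with its 1132 lower. With strain as a block, which leaves only SSC 3 and SSC 4 to compare with somatic samples of their own strains, 449 were higher and 128 lower.

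**Figure D2:**
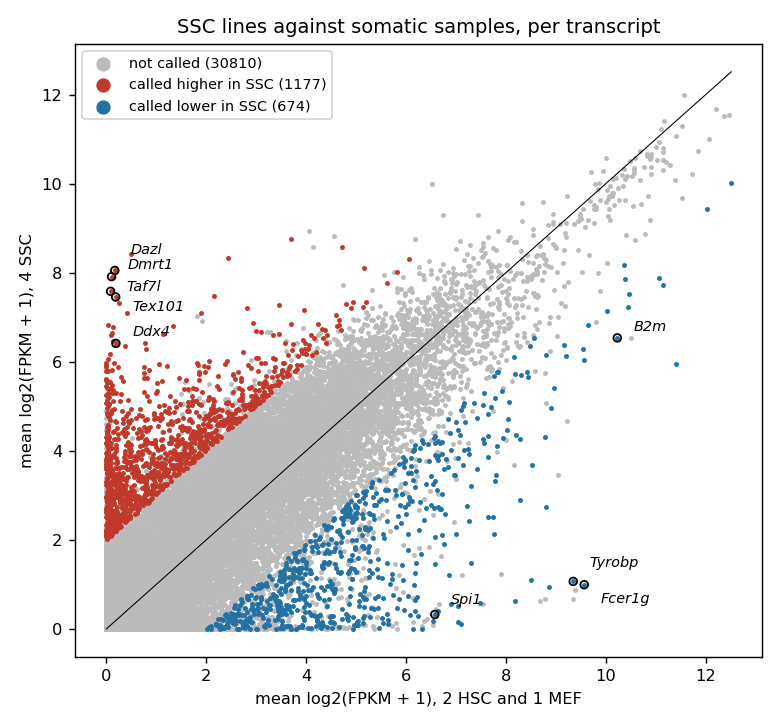
Mean log2(FPKM + 1) of each transcript in 4 SSC lines (vertical axis) against that in 2 HSC and 1 MEF samples (horizontal axis); red and blue points are the 1177 and 674 called transcripts and the line marks equal values. Germline genes such as Dazl and Dmrt1 stand at the left edge with almost no somatic signal, and Fcer1g and Tyrobp at the lower right.

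The largest differences were those of germline genes with no appreciable somatic signal. Dmrt1, a DM-domain transcription factor that keeps spermatogonia out of meiosis, was at 231, 223, 224 and 287 FPKM in SSC 1 to SSC 4, against 0.122 and 0.0376 in the HSC cultures and 0.0685 in MEF 1. The SSC lines thus lay within a narrow band, far above every somatic sample, and the difference was 7.81 ± 0.10 (SE) with an adjusted p of 1.47e-05. Dazl, an RNA-binding protein that licenses germ cell fate, was at 202, 405, 275 and 216 FPKM in SSC, 0.42 and 4.02e-04 in HSC and 2.08e-04 in MEF 1. Its difference was 7.88 ± 0.29 (SE), adjusted p = 0.000307. Taf7l, an X-linked paralogue of the general factor TAF7, differed by 7.5 ± 0.15 (SE), Tex101, a germ cell surface glycoprotein, by 7.27 ± 0.17 (SE), and Slc25a31, the adenine nucleotide translocase of germ cells, by 6.65 ± 0.10 (SE). Each was between 92.9 and 227 FPKM in the SSC lines and at most 0.323 FPKM in soma.

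Among the 12 genes with the largest differences were also Egr4 (7.06), an immediate early transcription factor, Sohlh2 (6.52), a helix-loop-helix factor of spermatogonia, Sox3 (6.32), Mael (6.53), Ddx4 (6.22) and the tubulins Tuba3a (7.92) and Tuba3b (6.67). Tuba3a and Tuba3b are near-identical copies, so with reads that map to more than 1 place left out their values are uncertain.

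The promoters of 4 of the genes called higher are shown as mm9 sequence from 250 bases before to 50 after the transcript's start in the files, 5′ to 3′, with TCCCGC (or GCGGGA on the other strand) and CACGTG in capitals. They are shown because each holds both motifs.
Ddx4 (chr13:113442469-113442768, minus strand): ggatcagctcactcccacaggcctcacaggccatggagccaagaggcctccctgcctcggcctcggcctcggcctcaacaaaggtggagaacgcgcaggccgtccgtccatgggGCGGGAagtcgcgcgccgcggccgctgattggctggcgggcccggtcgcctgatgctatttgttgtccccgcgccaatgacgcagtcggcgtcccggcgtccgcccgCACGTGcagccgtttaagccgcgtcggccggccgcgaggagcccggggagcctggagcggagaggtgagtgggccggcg
Mael (chr1:168168826-168169125, minus strand): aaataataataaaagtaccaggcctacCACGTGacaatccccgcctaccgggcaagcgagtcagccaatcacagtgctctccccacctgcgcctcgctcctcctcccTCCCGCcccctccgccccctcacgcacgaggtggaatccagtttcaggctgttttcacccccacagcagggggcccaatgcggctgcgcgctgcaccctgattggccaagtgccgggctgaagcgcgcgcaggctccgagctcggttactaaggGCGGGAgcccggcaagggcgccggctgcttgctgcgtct
Slc25a31 (chr3:40512543-40512842, plus strand): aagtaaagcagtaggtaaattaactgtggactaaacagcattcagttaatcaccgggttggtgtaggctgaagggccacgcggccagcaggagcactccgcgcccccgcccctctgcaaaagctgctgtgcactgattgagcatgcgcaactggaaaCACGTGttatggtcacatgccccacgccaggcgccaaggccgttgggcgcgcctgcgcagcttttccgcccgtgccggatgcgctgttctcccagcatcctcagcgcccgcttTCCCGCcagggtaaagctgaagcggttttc
Stag3 (chr5:138721487-138721786, plus strand): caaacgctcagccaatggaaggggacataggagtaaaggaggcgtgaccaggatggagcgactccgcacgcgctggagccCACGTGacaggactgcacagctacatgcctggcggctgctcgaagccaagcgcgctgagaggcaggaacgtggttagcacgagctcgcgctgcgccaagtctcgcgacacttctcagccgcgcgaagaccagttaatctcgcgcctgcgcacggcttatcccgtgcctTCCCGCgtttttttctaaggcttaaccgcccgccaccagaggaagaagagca

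Over the 966 genes called higher whose promoter could be read, TCCCGC was present on either strand in 42.5% and CACGTG, which reads the same on both strands, in 12.5%. Of all 20824 promoters 26.9% held TCCCGC and 8.07% CACGTG, and of the 14094 whose gene reached 1 FPKM in any of the 7 samples 35.2% and 9.81%. Both motifs together were in 6.52% of the promoters called higher, 2.70% of all and 3.69% of expressed. For the 521 genes called lower the shares were 24.6% and 7.87%. The median ratio of observed to expected CpG was 0.793 for the genes called higher, 0.509 for those called lower and 0.746 for expressed genes. In the list of meiotic genes described further on 15 of 24 promoters held TCCCGC and 8 held CACGTG. In the piRNA list 6 of 13 held CACGTG and 1 held TCCCGC, and in the germ cell RNA-binding list 6 of 25 and 10. Of lists with genes called lower, the MHC class I list held CACGTG in 3 of 18 promoters and TCCCGC in 5. The cytoskeletal list held CACGTG in 3 of 22 and TCCCGC in 7. These shares are descriptions of sequence and were not tested.

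Of 22 regulators of spermatogonial stem cells, 12 rose in SSC over soma and none fell, where 4.32% of all 23891 genes rose and 2.31% fell, and the list's median difference was 3.03 against 0.02 over all genes. Against HSC alone 13 rose (4.84% of all genes) and against MEF alone 9 (3.91%). These shares over all genes apply to each later list as well. With samples left out or strain as a block, the number called over all transcripts changed too, as the closing sections give. Without SSC 1, SSC 3 and HSC 2, the libraries with most fibroblast RNA outside MEF 1, 2 of the 22 were called, at a median of 2.94, and with strain as a block 4. Ret, the signalling kinase of the GDNF receptor, was at 41.7, 78.9, 21.1 and 30.1 FPKM in SSC and at most 0.0393 in soma, a difference of 5.25 ± 0.44 (SE) and an adjusted p of 0.00254. Its partner Gfra1, the receptor that binds GDNF, was at 18.2, 22.2, 9.04 and 31.7 FPKM in SSC, 0.174 and 0.931 in HSC and 35.5 in MEF 1. MEF 1 exceeded all 4 SSC lines, and Gfra1 was called against HSC (3.70 ± 0.55, adjusted p = 0.0167) but not against soma (adjusted p = 0.336) or MEF (-0.90 ± 0.70, adjusted p = 0.536). Lin28a, an RNA-binding inhibitor of let-7 processing, was at 141, 44.6, 36.9 and 189.6 FPKM in SSC and at most 0.392 in soma (difference 6.17 ± 0.66 (SE), adjusted p = 0.0048). Zbtb16, the PLZF repressor needed for self-renewal, reached 63.5, 33.6, 32.2 and 80.3 FPKM in SSC, and 0.143 and 3.63 in the HSC cultures. It was higher in SSC by 4.82 ± 0.67 (SE), adjusted p = 0.00935.

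Etv5 and Ccnd2 were less uniform. Etv5, an ETS factor induced by GDNF, was at 17.2, 123, 44.99 and 11.4 FPKM in SSC, 29.1 and 17.9 in HSC and 9.95 in MEF 1. Ccnd2, cyclin D2, was at 34.6, 310.1, 44.6 and 45.3 FPKM in SSC, 62.04 and 34.01 in HSC and 87.3 in MEF 1. In both, SSC 2 stood above every other sample. For Etv5, SSC 3 (44.99) also lay above every somatic sample. The remaining SSC values of both genes lay within the somatic range, and neither gene passed the test (adjusted p = 0.587 and 0.931). Nanos2, Bcl6b, Sall4, Foxo1, Pou3f1, Taf4b and Utf1, further factors of undifferentiated or dividing spermatogonia, were among those that rose, by 2.83 (Pou3f1) to 5.33 (Sall4). Nanos3, at 72.3, 10.9, 66.2 and 84.2 FPKM, rose by 5.22.

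Some genes of differentiating spermatogonia, such as Stra8, were present too. They belong to a list of 11 that also holds genes not specific to differentiation, such as Uchl1. Of the 11, 5 rose and none fell against soma, with a median of 2.32. The count was 3 without HSC 1 or HSC 2, 2 with strain as a block and 0 without SSC 1, SSC 3 and HSC 2 together. Stra8, which answers to retinoic acid at the entry into meiosis, was at 21.3, 12.1, 56.96 and 6.75 FPKM in SSC and at most 0.0732 in soma (4.22 ± 0.70 (SE), adjusted p = 0.0154). Uchl1, a ubiquitin hydrolase abundant in spermatogonia, was at 625, 149.6, 395 and 278 FPKM in SSC, 0.873 and 5.52 in HSC and 12.2 in MEF 1 (5.88 ± 0.82 (SE), adjusted p = 0.00947). Kit, the receptor of Kit Ligand and a mark of differentiation in the testis, was at 10.1, 14.3, 6.3 and 15.8 FPKM in SSC, 401 and 286 in HSC and 0.00957 in MEF 1. SSC lay between the somatic groups. Kit was lower in SSC than in HSC, with a log2 difference of -4.82 (adjusted p = 0.00436) and higher than in MEF by 3.57 (adjusted p = 0.0252), and against soma as a whole the difference was -2.02 ± 2.25 (SE), adjusted p = 0.62. Sohlh1 was at 24.8 FPKM in SSC 1 but 1.43, 2.01 and 0.0871 in the others.

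Of 25 germ cell RNA-binding and identity genes 15 rose and none fell, with a median of 4.43. Of these 25, 15 rose against HSC and 13 against MEF, and 6 were called without SSC 1, SSC 3 and HSC 2 (median 3.18). Ddx4, the VASA helicase of germ granules (chr13:113388541-113442518, mm9), was at 170.3, 20.1, 153 and 93.2 FPKM in SSC and at most 0.312 in soma. SSC 2 was the lowest SSC line by a wide margin, though above every somatic sample, and the difference was 6.22 ± 0.79 (SE), adjusted p = 0.00724. Mael, a germ granule and piRNA factor, showed the same order, with 193, 26.9, 205 and 87.1 FPKM in SSC and at most 0.136 in soma (6.53 ± 0.76 (SE), adjusted p = 0.0058). Tex19.1, which restrains transposons, was at 108, 5.1, 16.5 and 3.03 FPKM, above every somatic value in all 4 lines but not called (adjusted p = 0.0921). Pabpc1, a general poly(A)-binding protein, was at 538, 586, 492 and 632 FPKM in SSC and between 425 and 628 in soma, and did not pass the test (adjusted p = 0.533).

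In the piRNA pathway, 10 of 14 genes rose and none fell (median 3.21). Of the 14, 8 rose against HSC alone and 8 against MEF alone. Without SSC 1, SSC 3 and HSC 2 the count was 1 and the median 2.79, and with strain as a block the count was 6. Piwil2, the MILI argonaute that binds piRNAs, was at 108, 53.6, 87.8 and 84.1 FPKM in SSC and at most 0.415 in soma (5.97 ± 0.25 (SE), adjusted p = 0.000563), and the mitochondrial anchor Asz1 at 43.9, 36.6, 42.4 and 70.05 FPKM and at most 0.013 (5.57 ± 0.22 (SE), adjusted p = 0.000444). Mov10l1, the helicase that feeds precursors to the pathway, was at 112, 15.1, 85.1 and 30.3 FPKM in SSC and at most 0.0635 in soma (5.50 ± 0.73 (SE), adjusted p = 0.00842). Piwil1, the MIWI argonaute of later stages, was lower, at 5.57, 2.48, 2.74 and 2.51 FPKM, and was called at 2.03 ± 0.25 (SE). In every SSC line the FPKM of Piwil2, a level per length, exceeded that of Piwil1.

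Of 25 genes of the meiotic chromosome axis and recombination 14 rose and none fell, and the median was 3.22. Of the 25, 11 rose against HSC alone and 11 against MEF alone, and 3 were called without SSC 1, SSC 3 and HSC 2 (median 2.94), 9 without HSC 1 or HSC 2 and 7 with strain as a block. Sycp1, of the transverse filament of the synaptonemal complex, was at 24.2, 59.8, 36.5 and 15.5 FPKM in SSC and at most 0.0378 in soma (4.94 ± 0.45 (SE), adjusted p = 0.00318). Sycp3, of the chromosome axis, was at 52.7, 5.63, 75.2 and 27.7 FPKM and at most 0.293 (4.58 ± 0.88 (SE), adjusted p = 0.023), with SSC 2 the lowest SSC line again. Syce3 was at 92.99, 41.4, 85.4 and 26.4 FPKM in SSC and listed at 0 in all 3 somatic samples. Meiob, a single-strand binding factor, was at 0.157 to 0.589 FPKM in SSC. Prdm9, which places recombination hotspots, was at 1.32 to 4.01 in SSC and 0.951 to 1.82 in soma (adjusted p = 0.503). Of 18 spermatid genes none was called in either direction, and Prm1, Prm2, Tnp1 and Tnp2, which pack the sperm nucleus, stayed at or under 0.533 FPKM in every SSC line.

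**Figure D3:**
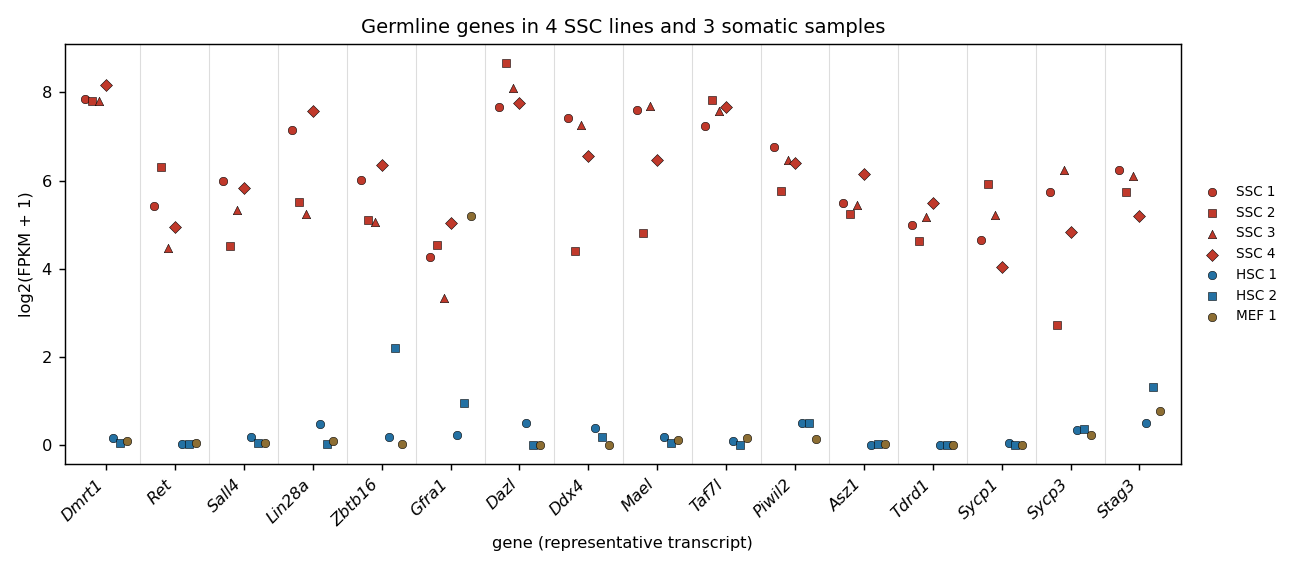
log2(FPKM + 1) of 16 germline genes, 1 point per sample, in SSC (red), HSC (blue) and MEF (brown). The genes were picked from their lists, and every gene but Gfra1 shows 4 SSC values above all somatic values. For Gfra1, MEF 1 (35.5 FPKM) lies above the SSC lines. In the whole lists 17 of 22 stem cell regulators, 20 of 25 RNA-binding, 13 of 14 piRNA and 21 of 25 meiotic genes have all SSC values above all somatic ones. Over all genes the share is 24.2%.

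Of the 1446 transcripts of chromosome X 96 (6.64%) were higher in SSC, against 3.47% of 31123 autosomal ones, and 1.80% were lower, against 2.08%. The difference between these shares was not tested. Mageb16, a cancer-testis gene, was at 22.4, 25.9, 21.9 and 39.5 FPKM in SSC and at most 0.0903 in soma (4.75 ± 0.22 (SE), adjusted p = 0.000591), the only one called of 21 Mage genes, where 4.32% of all genes rose. In the Rhox homeobox cluster, against the same 4.32%, 2 of 30 rose, Rhox13 (5.34 ± 0.24 (SE), adjusted p = 0.000586) and Rhox10 (4.04 ± 0.23 (SE), adjusted p = 0.000976), while Rhox2a, 1 of several near-identical copies, was at 10.04, 0.295, 11.4 and 0.624 FPKM. Of 18 autosomal retrogenes and their X-linked parents 2 rose, Rbmxl2 and Taf9b, and 1, Pgk1, was called lower. Over all genes 4.32% rose and 2.31% fell. The call of Pgk1 was lost under quantile normalization, in the fit of 3 groups, with strain as a block and when any of the 7 samples but SSC 3 was left out. Rbmxl2, an autosomal retrocopy of Rbmx, was at 54.6, 47.3, 78.4 and 55.3 FPKM in SSC and at most 0.364 in soma (5.64 ± 0.19 (SE), adjusted p = 0.000251). Pgk1, a glycolytic enzyme, was at 47.4, 35.1, 146 and 27.5 FPKM in SSC, 505 and 228 in HSC and 274 in MEF 1 (-2.61 ± 0.65 (SE), adjusted p = 0.0486), and its retrocopy Pgk2, used in later germ cells, was at most 0.0187 in SSC. On the Y chromosome, Usp9y was at 3.72, 5.72, 3.96 and 5.14 FPKM in SSC, 0.00968 and 0.0586 in HSC and listed at 0 in MEF 1 (2.45 ± 0.14 (SE), adjusted p = 0.001), and Zfy1, a zinc finger gene, differed by 2.10 ± 0.26 (SE). These were the 2 called of 12 genes of the Y and of X inactivation, where 4.32% of all genes rose. Both were higher than in the HSC cultures, whose Eif2s3y (22.4 and 23.6) came close to that of SSC (26.1 to 46.3). Of these 12, 1 was called without SSC 2 or with strain as a block.

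Of 21 pluripotency genes 8 rose and none fell, with a median of 1.74, where 4.32% of all genes rose. The count was 5 without SSC 1, SSC 3 or HSC 1, 3 with strain as a block and 0 without SSC 1, SSC 3 and HSC 2 together. Trim71, a let-7 target that represses mRNAs, was at 46.9, 26.6, 35.4 and 49.8 FPKM in SSC and at most 0.204 in soma (5.12 ± 0.23 (SE), adjusted p = 0.000586), and Dppa4, a chromatin protein of pluripotent cells, at 17.4, 14.4, 20.5 and 6.56 FPKM and at most 0.192 (3.77 ± 0.38 (SE), adjusted p = 0.00407). Of the core factors, Nanog was at 3.33, 3.66, 3.91 and 1.72 FPKM in SSC, 3.87 and 0.791 in HSC and 1.09 in MEF 1 (adjusted p = 0.395), and Sox2 was at or under 3.13 FPKM in all 7 samples (adjusted p = 0.714). Pou5f1, which encodes OCT4, was at 94.5, 2.1, 1.37 and 5.42 FPKM in SSC, 1.49 and 0.797 in HSC and 3.74 in MEF 1 (adjusted p = 0.528). SSC 1, an Oct4-GFP line, stood apart, and SSC 2, of the same strain label, did not. Pou5f1 has processed pseudogenes, and reads shared with them were left out upstream.

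Surface antigens used to sort SSC differed among themselves. Epcam was at 48.3, 140.3, 37.3 and 57.9 FPKM in SSC and at most 0.197 in soma (5.82 ± 0.46 (SE), adjusted p = 0.00232), and Mcam at 164, 282, 134 and 157 FPKM in SSC, 0.182 and 0.924 in HSC and 38.6 in MEF 1 (5.31 ± 1.29 (SE), adjusted p = 0.0448). Thy1 was at 23.6, 6.28, 24.8 and 3.82 FPKM in SSC, 1.21 and 5.45 in HSC and 849.9 in MEF 1, so the fibroblasts held far more than any SSC line, and SSC 1 and SSC 3, the lines with the larger fibroblast marker sums, held more than SSC 2 and SSC 4. The part of feeder RNA in these SSC values was not tested. Of the 15 surface genes 4 rose and none fell, where 4.32% of all genes rose. The count was 1 without SSC 2, 2 without SSC 1, SSC 4 or HSC 1, and 1 with strain as a block or without SSC 1, SSC 3 and HSC 2 together.

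Of the chromatin genes, 5 of 21 germline regulators rose and none fell (median 1.22), where 4.32% of all genes rose. With strain as a block 3 were called. Scml2, a germline Polycomb protein, was at 56.9, 61.3, 64.4 and 51.8 FPKM in SSC and at most 0.00156 in soma (5.89 ± 0.08 (SE), adjusted p = 1.47e-05), and Cbx2, a Polycomb subunit, rose by 4.00 ± 0.24 (SE), adjusted p = 0.0011. Mga, of the complex that binds the E-box, rose by 2.03, and E2f6 was at 17.1, 15.7, 17.98 and 23.5 FPKM in SSC against 6.4 and 8.17 and 6.54, a difference of 1.27 ± 0.16 (SE) that has an adjusted p of 0.00657 but is under the threshold of 2. Of 16 genes of DNA methylation and demethylation 1 was called, where 4.32% of all genes rose. This was Dnmt3a, at 15.8, 14.4, 10.3 and 13.97 FPKM in SSC, 1.18 and 2.83 in HSC and 1.19 in MEF 1 (2.45 ± 0.26 (SE), adjusted p = 0.00448), though not with strain as a block. Its cofactor Dnmt3l was at or under 2.25 FPKM in every sample (adjusted p = 0.461).

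**Figure D4:**
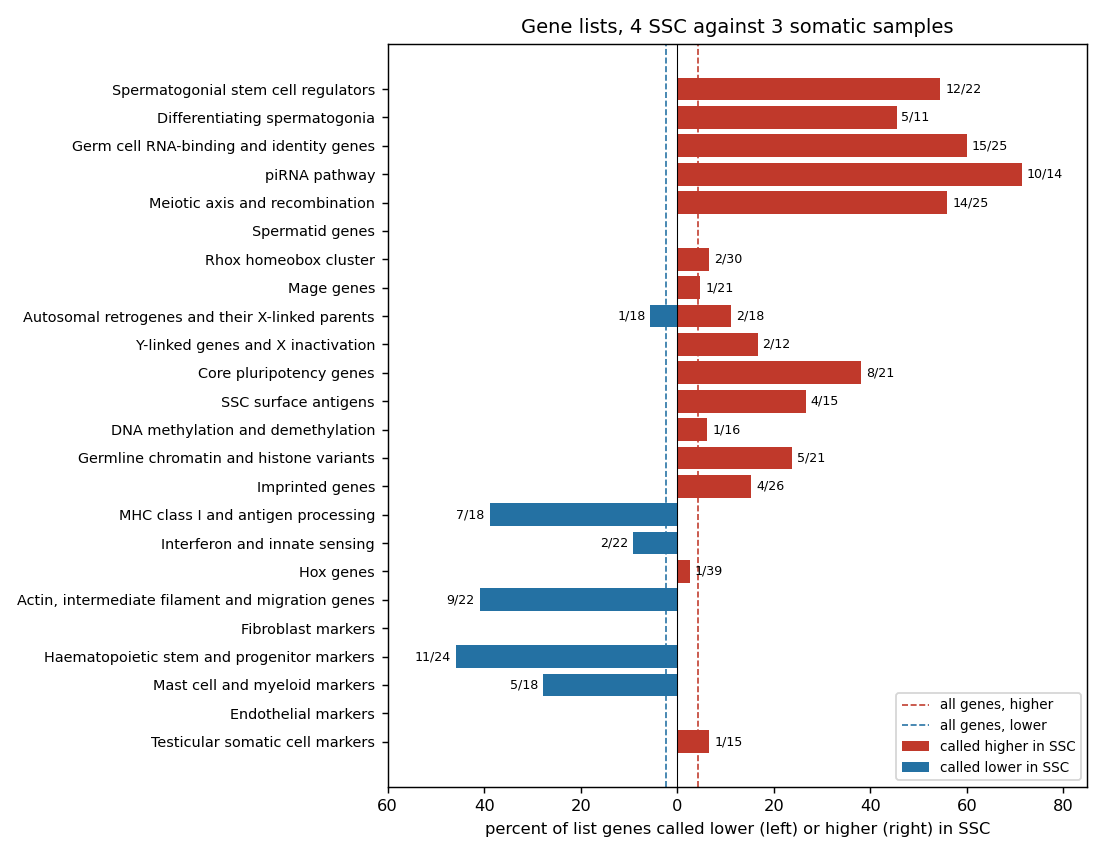
Percent of each list's genes called higher (right, red) or lower (left, blue) in SSC against the 3 somatic samples, with counts of genes; dashed lines are the shares over all genes, 4.32% higher and 2.31% lower. Germline lists reach 15 of 25 and 10 of 14, while MHC class I (7 of 18), cytoskeletal (9 of 22), haematopoietic (11 of 24) and mast cell and myeloid (5 of 18) lists have the most genes lower.

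Genes lower in SSC were led by leukocyte genes. Fcer1g, the signalling chain of Fc receptors, was at 0.676, 2.67, 1.02 and 0.259 FPKM in SSC, 1476 and 1199 in HSC and 245 in MEF 1 (-8.57 ± 0.75 (SE), adjusted p = 0.0028). Tyrobp, an adaptor of myeloid receptors, differed by -8.28 ± 0.89 (SE) and Spi1, the PU.1 master regulator of myeloid cells, by -6.25 ± 0.44 (SE), and Laptm5, Srgn, Alox5ap, Rgs1, Lilrb4, Cma2, Lcp1, Gp49a and Rac2 completed the 12. Each of the 12 was between 10.5 and 245 FPKM in MEF 1. The 12 were taken from called transcripts with every somatic value above every SSC value, so genes absent from MEF 1 could not enter. The part of leukocyte RNA of MEF 1 in these calls was not tested. Lilrb4 and Gp49a are near-identical and uncertain. Of 24 haematopoietic stem and progenitor markers 11 fell against soma, 19 against HSC alone (3.83% of all genes) and 8 against MEF (2.06%). Of 18 mast cell and myeloid markers 5 fell against soma, 16 against HSC and 3 against MEF, where Prtn3 rose. Against soma the haematopoietic count was 7 without SSC 1, SSC 4, HSC 1 or HSC 2 and 3 with strain as a block. The mast cell and myeloid count was 3 without any 1 SSC line or HSC 1 and 2 with strain as a block. Without MEF 1 the counts are those against HSC alone, as the test is the same. Neither list had a call without SSC 1, SSC 3 and HSC 2 together. Cpa3, mast cell carboxypeptidase, was at 10252 and 6795 FPKM in HSC, listed at 0 in MEF 1, and at 0, 0.0141, 4.53 and 0 FPKM in SSC, and was called against HSC (-12.41, adjusted p = 0.00297) and not against soma (adjusted p = 0.192). In bulk samples fewer cells of a type and less RNA per cell cannot be told apart.

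Of 18 genes of MHC class I and antigen processing 7 fell in SSC and none rose, where 2.31% of all genes fell, and 10 of the 18 did not overlap between the groups (9.9% of all genes did so in this direction). Of the 18, 8 fell against HSC alone and 2 against MEF alone. None was called without SSC 1, SSC 3 and HSC 2, at a median of -2.11 against -1.83 with all samples. The count was 4 without SSC 1, SSC 4 or HSC 1, 3 without HSC 2 and 2 with strain as a block. B2m, the invariant light chain of MHC class I (chr2:121973423-121978818, mm9), was at 66.7, 88.3, 119 and 101 FPKM in SSC, 1683 and 1255 in HSC and 818 in MEF 1. Every SSC line lay far under every somatic sample, with a difference of -3.69 ± 0.31 (SE) and an adjusted p of 0.00253, and it was lower against HSC (-3.97, adjusted p = 0.0028) and against MEF (-3.14, adjusted p = 0.0141). The heavy chains H2-K1, H2-D1 and H2-Q4 fell, with log2 differences of -2.77, -3.55 and -2.14, with the caution that these loci are close copies. H2-Q7 was at 0.331, 35.1, 20.5 and 23.5 FPKM in SSC and 69.9 and 9.07 and 0.334 in HSC and MEF, and was not called (adjusted p = 0.987). Tap1 and Tap2, the peptide transporter, were at 3.85, 2.25, 2.87 and 1.75 FPKM and at 13.3, 3.35, 10.7 and 3.26 FPKM in SSC. MEF 1 had 17.5 and 26.5, and the HSC cultures 38.96 and 42.03 FPKM and 98.4 and 111 FPKM, so both subunits fell (-3.14 ± 0.37 (SE), adjusted p = 0.00592, and -3.17 ± 0.73 (SE), adjusted p = 0.0392). Psmb8, an immunoproteasome subunit, was at 5.98, 1.06, 2.14 and 1.3 FPKM in SSC against 133 and 112 in HSC and 31.5 in MEF 1 (-4.63 ± 0.68 (SE), adjusted p = 0.0111), while its partner Psmb10 was at 64.2, 11.6, 48.5 and 44.6 FPKM against 38.6 and 49.05 and 24.7 (adjusted p = 1).

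The interferon list of 22 genes held 2 that fell, Irf9 and Ddx58, which encodes the RNA sensor RIG-I (-2.82 ± 0.40 (SE), adjusted p = 0.00984), and none that rose. Over all genes 2.31% fell. The count lower was 6 without HSC 1, 1 without SSC 1, SSC 3, SSC 4, HSC 2 or MEF 1, and 0 with strain as a block. Irf1, an activator of MHC class I genes, was at 101, 33.8, 58.9 and 54.7 FPKM in SSC against 13.4 and 16.6 in HSC and 17.6 in MEF 1, a difference of 1.81 ± 0.37 (SE) (adjusted p = 0.028) that is under the threshold of 2.

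Of 22 genes of the actin cytoskeleton, intermediate filaments and migration 9 fell and none rose (median -2.72). Of the 22, 6 fell against HSC alone and 3 against MEF alone, and 4 were called without SSC 1, SSC 3 and HSC 2 (median -3.27). The count was 4 without SSC 1, SSC 4 or HSC 2 alone, 5 without HSC 1 and 2 with strain as a block. Lgals1, galectin 1, was at 208, 160.1, 318 and 180.1 FPKM in SSC, 2396 and 1802 in HSC and 2634 in MEF 1, and fell with a difference of -3.42 ± 0.28 (SE), adjusted p = 0.00232. Emp3, a membrane protein, differed by -4.84 ± 0.60 (SE) and Lmna, lamin A/C, by -3.82 ± 0.84 (SE) (adjusted p = 0.00684 and 0.034). Vim, the intermediate filament vimentin, was at 195, 19.2, 459 and 40.5 FPKM in SSC, 1260.2 and 1295 in HSC and 1888 in MEF 1, apart in every sample but not called (adjusted p = 0.0761). Within the SSC lines Vim, Lmna and Emp3 were highest in SSC 3 and then SSC 1, the order of the fibroblast marker sums, and the part of feeder RNA in their levels was not tested.

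**Figure D5:**
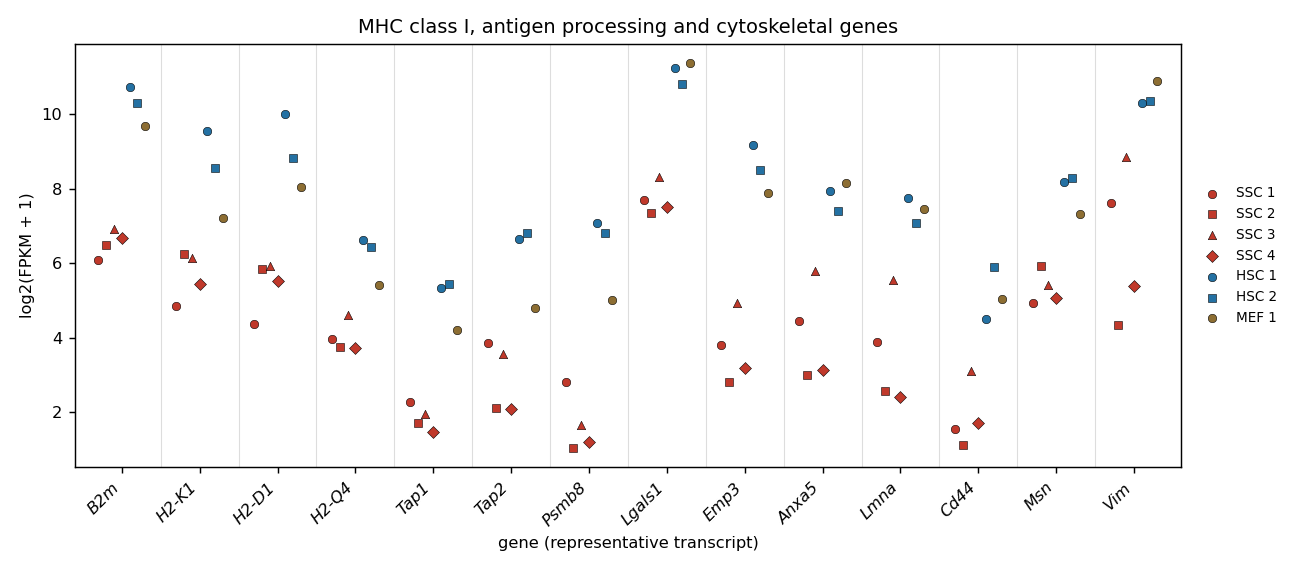
log2(FPKM + 1) of 7 MHC class I and processing genes and 7 cytoskeletal genes, 1 point per sample, in SSC (red), HSC (blue) and MEF (brown). The genes were picked from their lists, and for each of them the 4 SSC values lie under the 3 somatic ones. In the whole lists this holds for 10 of 18 and 16 of 22 genes, and over all genes for 9.9%. B2m is 66.7 to 119 FPKM in SSC.

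Of 20 fibroblast markers none was called against soma, where 2.31% of all genes fell. Against MEF, where 2.06% fell, Tagln, an actin-binding protein, was the only one that fell (-7.56, adjusted p = 0.0445). The list's median difference against MEF was -4.32, so the few calls do not mean small differences. The 20 include Col1a1, listed at 0 in MEF 1 without a valid estimate. Col1a2 was at 102, 1.37, 267 and 18.8 FPKM in SSC, 0.34 and 143 in HSC and 3059.6 in MEF 1. Of 10 endothelial markers none was called against soma and 2 fell against the HSC cultures, Pecam1 and Vwf, which were at 42.3 and 19.2 FPKM and at 26.03 and 32.6 FPKM in the HSC cultures. Among testicular somatic markers, Amh, a hormone of Sertoli cells, was at 0.0372, 0.133, 0.817 and 0.178 FPKM and Cyp11a1, the first enzyme of steroid synthesis, at 0.0231, 0.0225, 0.264 and 0.0451 FPKM, against 601 and 206 in HSC. Wt1 alone of 15 rose, where 4.32% of all genes rose. It was at 20.9, 8.17, 14.3 and 13.3 FPKM in SSC against 0.0212 and 0.0444 and 0.972 (3.50 ± 0.38 (SE), adjusted p = 0.00493), and was not called with strain as a block.

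Of 26 imprinted genes 4 rose against soma, Peg10, Nnat, Phlda2 and Zdbf2, where 4.32% of all genes rose. Against MEF alone none rose, where the share over all genes was 3.91%. The count against soma was 1 without SSC 2, HSC 1 or HSC 2, 2 without SSC 3 or SSC 4, and 0 with strain as a block or without SSC 1, SSC 3 and HSC 2 together. Peg10, a retrotransposon-derived gene, was at 10.9, 40.8, 16.6 and 31.8 FPKM in SSC, 0.186 and 1.11 in HSC and 1.45 in MEF 1 (3.66 ± 0.53 (SE), adjusted p = 0.0106). H19, a maternally expressed noncoding RNA, was at 162, 8.27, 294 and 1.09 FPKM in SSC, 109 and 2.45 in HSC and 709 in MEF 1 (adjusted p = 0.872), so SSC 1 and SSC 3 held far more than SSC 2 and SSC 4. These are also the lines with more fibroblast RNA, whose part in the H19 level was not tested. Of 39 Hox genes, which set position along the body axis, Hoxb13 alone rose (3.06 ± 0.54 (SE), adjusted p = 0.0186), at 6.59, 21.2, 3.52 and 9.15 FPKM in SSC and at most 0.198 in soma, and 4.32% of all genes rose. Its call was lost without SSC 4, HSC 1 or HSC 2 and with strain as a block. The median difference of the Hox list was 0.30, and -0.19 with strain as a block.

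In 4 genes 1 transcript rose in SSC and another fell. Ddx19b, an RNA helicase of nuclear export, gave NM_001190786 at 17.4, 29.9, 22.1 and 33.6 FPKM in SSC and at most 0.167 in soma, and NM_172284 at no more than 0.342 in SSC and 3.54 to 5.68 in soma. The differences were 4.63 ± 0.24 (SE) and -2.37 ± 0.17 (SE) (adjusted p = 0.000857 and 0.00184). Pphln1 (periphilin, 3.27 and -2.99), Ccnd3 (cyclin D3, 2.99 and -2.13) and Fbxo6 (2.20 and -2.40) were the others. Cufflinks divides reads among overlapping transcripts by a model, so such pairs share its assignment error. By class, 4.00% of 28396 NM_ transcripts rose and 2.30% fell, against 0.938% and 0.516% of 4265 NR_ transcripts. Of the NR_ transcripts 1185 were under 200 bases. A transcript near 0 in both groups cannot be called, and these shares were not limited to expressed transcripts, so they do not compare the classes at equal expression.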

How the data were processed

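RNA was extracted with the RNeasy Kit and libraries were made from 4 ug of DNase-treated RNA by the Tru-seq protocol. As the study's methods and the submitters' processing notes give it, reads were aligned to mm9 with TopHat2 2.0.11, duplicates and reads mapping to more than 1 place were left out, and Cufflinks (version not given in the sources used here) estimated values with upper-quartile and GC normalization. The authors deposited 1 table per sample with an FPKM per transcript, its confidence bounds and a coverage, a signal in reads per base. FPKM was used as deposited, and the coverage only for depth. Read counts per transcript are not given, so depth is known only from the coverage and no interval for counting error could be made. Cufflinks marked up to 7 transcripts per library as without a valid estimate, and these are listed at 0.

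From these, log2(FPKM + 1) was computed without a filter or further normalization and fitted with limma 3.58.1 (lmFit and eBayes, no trend) in R 4.3.3, 4 SSC against 3 somatic samples; for HSC and MEF apart, 3 groups over the same 7 samples. Tests are two-sided, and transcripts whose difference is at least 2 at an adjusted p under 0.05 were called. For a gene, the transcript with the highest mean FPKM stands. On simulated data for SSC against soma over 32661 transcripts, sets of 50 were changed by 2.5, 4, 6 and 8. Of these 36%, 76%, 90% and 90% were recovered, with 2 false calls. The changed transcripts had a mean log2 value above 2, rose at the sizes 2.5 and 4 and fell at 6 and 8. Noise was normal and of equal spread in both groups, so these rates do not cover transcripts near the floor. Promoters were read at the files' transcript starts from the mm9 genome, with strands from the annotation. The 24 gene lists and the members were chosen with earlier results of these data known. Named genes are the 12 largest differences each way among called transcripts of at least 200 bases without overlap between the groups. To these were added the first 4 of each list with its 2 largest and 2 smallest, and genes with opposed transcripts. Other genes were chosen after their values were seen. Alternatives were another pseudocount, filter, normalization, fit, threshold and each sample left out. Python 3.11 and matplotlib drew the figures. ESC, iPS and MASC samples and ChIP-seq data were not analysed here.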

Additional observations from a re-analysis of the deposited data

Results flagged for a closer look

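In 22 of 195 named transcripts 1 SSC line stood apart from the other 3 on the log2(FPKM + 1) scale, by a gap to its nearest neighbour that, as a share of the group's whole range, was above Dixon's 95% critical value for 4 samples. Chance flags about 1 in 20 groups. Among genes of the germline and of differentiation, SSC 4 was the highest for Dmrt1 (gap 0.86) and the lowest for Syce1 (0.923). SSC 2 was the lowest for Egr4 (0.87) and the highest for Ccnd2 (0.879), Prm2 (1.0), Odf2 (0.939) and Rhox3e (0.994). SSC 1 was the highest for Tdrd9 (0.983), Piwil1 (0.886) and Ldhc (0.895), and Tdrd9, a helicase of the piRNA pathway, was at 9.4, 0.311, 0.265 and 0.293 FPKM in the 4 lines. Prm2 and Rhox3e were under 0.1 FPKM in every SSC line, so their gaps rest on very few reads. The same limit touches Fgf4 (0.0128, 0.0125, 0.101 and 0.00418 FPKM) and Cyp11a1 (0.0231, 0.0225, 0.264 and 0.0451 FPKM), which follow.

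SSC 3 was the highest for the mast cell genes Mcpt4 (1.0), Cpa3 (0.992), Cma1 (0.989) and Cma2 (0.937), for Cyp11a1 (0.897), which the HSC cultures held at 601 and 206 FPKM, and for Fgf4 (0.907) and Tet2 (0.863). SSC 2 was the highest for the endothelial markers Pecam1 (0.938) and Flt1 (0.866) and for Hoxa9 (0.833). SSC 1 was the lowest for Hoxd4 (0.913) and for H2-Q7 (0.843), which was at 0.331 FPKM there and 20.5 to 35.1 in the other lines.

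For 2 named genes the difference of SSC from HSC and that from MEF were both called and pointed opposite ways. Kit was lower in SSC than in HSC and higher than in MEF, and the 2 differences were 8.39 apart on the log2 scale. Prtn3, a neutrophil protease, was at 8.53, 8.46, 8.75 and 10.2 FPKM in SSC, 634 and 391.8 in HSC and 0.548 in MEF 1, and its differences were 8.33 apart. Both were called when HSC and MEF were compared in limma's fit of 3 groups, and both comparisons share the SSC samples.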

How the results depend on the processing

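Of 195 named transcripts 50 were called higher and 28 lower against soma, and none of these changed sign under any alternative. Calls were lost for 39 with strain as a block, for 62 without SSC 1, SSC 3 and HSC 2, for 7 (without MEF 1) to 20 (without HSC 2) when 1 sample was left out, for 6 under quantile normalization, 5 in the fit of 3 groups and 2 at a pseudocount of 0.1. With a threshold of 1 on the log2 difference, 3162 transcripts were higher and 1370 lower against soma, 2963 and 1986 against HSC, and 2009 and 1159 against MEF. A pseudocount of 0.1 gave 2414 and 1102 against soma, and 2545 higher against HSC and 1871 against MEF. A fit over all 17 samples gave 1080 lower against soma and 1164 against MEF, and an unadjusted p, a filter at 1 FPKM and quantile normalization gave 1161, 997 and 950 lower against MEF. Leaving out 1 sample at a time gave 823 to 1313 higher and 382 to 1132 lower against soma, 715 to 1313 higher and 881 to 1132 lower against HSC, and 579 to 862 higher and 270 to 561 lower against MEF. The 1313 and 1132 came without MEF 1, where the tests against soma and against HSC are the same. The lowest counts against MEF came without SSC 1, and without SSC 4 they were 662 and 300. Against HSC 715 were higher without HSC 1.

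The setting without SSC 1, SSC 3 and HSC 2 was chosen after seeing the data, and gave 270 higher and 51 lower against soma, 83 and 256 against HSC, and by limma 0 and 0 against MEF, where 1276 and 1166 had an unadjusted p under 0.05. It holds 4 samples, so fewer calls follow from its size as well. With strain as a block 449 were higher and 128 lower against soma. Values within a strain have no test: SSC 3 alone differed by at least 2 from the mean of HSC 1 and HSC 2 (C57Bl/6J) in 1987 transcripts higher and 1403 lower, and SSC 4 alone from MEF 1 alone (129mix) in 2204 higher and 1707 lower. With the replicate number as a block, SSC 1 and 2 against HSC 1 and 2, limma called 0 higher and 0 lower, with 1166 and 1046 at an unadjusted p under 0.05. Between same-numbered samples the deviations from the group mean had an r of 0.036 and -0.039. The deviations of the 2 HSC samples mirror each other, so these values cannot show whether the numbers mark a pairing. The cause of these changes was not tested beyond the number of samples. Depth limits values under about 0.1 FPKM.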

Other observations

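The SSC lines differed among themselves in an on and off manner. Counting a transcript as on at 10 FPKM or more and off under 1, 20 transcripts of 19 genes were on in SSC 1 and SSC 3 and off in SSC 2 and SSC 4. Of the 20, 10 were on chromosome X, which holds 1446 of all 32661 transcripts. Mageb4, an X-linked cancer-testis gene, was at 196, 0, 161 and 0.0538 FPKM in SSC 1 to SSC 4, Tktl1, a transketolase-like enzyme, at 54.1, 0.0312, 61.4 and 0.115 FPKM, and Rpl10l, the autosomal retrocopy of the X-linked ribosomal gene Rpl10, at 151, 0.903, 144 and 0.158 FPKM. Morc1, which silences transposons in germ cells, was at 18.96, 0.0031, 27.5 and 0.266 FPKM. The opposite pattern held for 6 transcripts, none of them on X, and these were transcripts of Magoh, Ywhaz, Eif4a2, Hnrnpa1, Eif3j2 and Fip1l1. These values are per transcript. Where a gene has several, Cufflinks divides its reads among them by a model, so assignment error can enter the on and off calls. No transcript was on in SSC 1 and SSC 2, which share a strain label, and off in SSC 3 and SSC 4. SSC 1 and SSC 3 are also the lines with more fibroblast marker RNA, and its part in the split was not tested. Mageb4 was at 0.0182 FPKM in MEF 1, Tktl1 at 0.0265 and Rpl10l at 0.0976, but other transcripts of the 20 were well above these there, with Serpina3h at 56.9, Rpl39l at 21.3 and Fosb at 14.2. These transcripts were picked for the split, which has no test.

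A set of 4 mast cell transcripts in SSC 3 stood at much the same ratio to HSC 1. Cpa3, Mcpt4, Cma1 and Tpsb2 were at 4.53, 5.57, 5.01 and 10.4 FPKM in SSC 3, which is 0.0441%, 0.0436%, 0.0412% and 0.0414% of their values in HSC 1 and 0.0666%, 0.0435%, 0.0766% and 0.0885% of those in HSC 2. In the other SSC lines each was under 0.1 FPKM. Fcer1g, which mast cells share with other leukocytes, was at 0.0694% of HSC 1 in SSC 3, 0.0458% in SSC 1, 0.181% in SSC 2 and 0.0175% in SSC 4, and did not follow that ratio. SSC 2 differed in another way, with Lyz2, a macrophage lysozyme, at 212 FPKM, against 22.3, 1.78 and 0.0691 in the other lines.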
